A study of Mus musculus with 3 samples.

Results

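Bone morphogenetic proteins (BMPs) are secreted ligands of the TGF-beta superfamily that bind pairs of serine/threonine kinase receptors and signal through SMAD proteins. They were named for their ability to induce bone, and they act in cartilage formation, osteoblast differentiation and joint development. Antagonists such as noggin, gremlin and chordin bind the ligands outside the cell and keep them from their receptors. The 10 genes described here are the ligand genes Bmp2, Bmp4, Bmp5, Bmp6 and Bmp7, the BMP3 subgroup genes Bmp3 and Gdf10, and the antagonist genes Nog, Grem1 and Chrd. They were chosen by symbol, with earlier results of these data known, and each was found once among the 26970 genes of the deposited expression table.

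RNA was sequenced from mandibular condyles, the jaw side of the temporomandibular joint, of 4-month-old mice. The 3 genotypes were wild-type (WT), heterozygous for a global Dspp knockout (Dspp+/-) and homozygous for it (Dspp-/-), all described by the study as on a C57BL/6 background, and no treatment is given. Dspp encodes dentin sialophosphoprotein, a matrix protein of dentin, bone and cartilage. Condyles were taken with cartilage and subchondral bone joined. Tissue of 3 animals was pooled for WT and for Dspp+/-, and the number behind Dspp-/- is not given in the sources used here. Each genotype is 1 library, so no test between genotypes was possible and every difference below is between single libraries.

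The levels are FPKM, fragments scaled to gene length and to the size of the library, so that levels can be compared between genes. Depth, recovered from the values, came to 20241576 fragments (WT), 23613623 (Dspp+/-) and 22253161 (Dspp-/-). Intervals are 95% intervals for counting error only, exact Poisson on a level and Clopper-Pearson on a fold, and they say nothing of the spread between mice. All marker genes of bone and cartilage looked for were detected in each library, as were those of blood cells and skeletal muscle, so the tissue was mixed. Xist, expressed from the inactive X chromosome of female cells, had 2 fragments in WT, against 12084 in Dspp+/- and 10563 in Dspp-/-, so sex and genotype cannot be told apart in these libraries. The Dspp gene was not analysed here, and the labels of genotype have no check from it.

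In WT, Bmp6 was the most abundant of the 10 genes at 20.1 FPKM and Bmp3 was next at 18.2. The library kit does not mark strand, so the Bmp6 level may hold reads of Txndc5, which overlaps it on the opposite strand. How much of the lead over Bmp3 comes from such reads was not tested. Bmp6 encodes a ligand known for its part in bone and in iron regulation, and Bmp3 encodes a bone matrix protein that acts as a brake on other BMPs. Nog (11.6 FPKM), Bmp4 (11.3), Bmp2 (11.0) and Gdf10 (10.6) followed, and each of these neighbours differed from the next by less than counting error. Bmp7 at 6.70, Bmp5 at 3.15, Chrd at 1.62 and Grem1 at 1.10 FPKM came last, each below the one before it by more than counting error. Bmp6 had a higher level than 92.8% of all genes in the table and Grem1 than 53.9%. All 10 genes averaged 1 FPKM or more, the limit used for comparing genes.

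**Figure D1:**
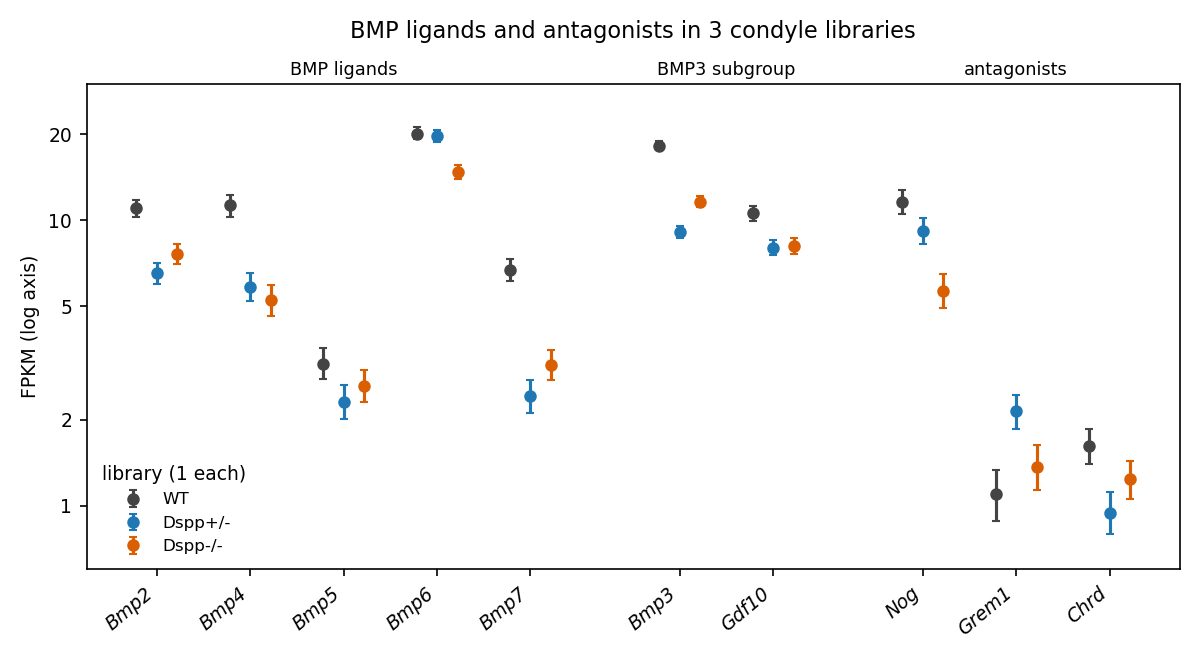
FPKM (log axis) of the 10 genes, grouped by role, in the WT, Dspp+/- and Dspp-/- libraries, 1 library each. Bars are 95% exact Poisson intervals for counting error. The WT point is the highest for 9 of the genes on the deposited scale (8 in Dspp+/- with scaling without mitochondrial genes, which turns Bmp6), and Grem1 is lowest in WT.

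Promoter sequences were at hand in the RefSeq table of build GRCm38.p6 for 6 of the 10 genes: Bmp4, Bmp5, Bmp6, Gdf10, Grem1 and Chrd. The 250 bases before the start site are shown for Bmp4, whose level was lower in both mutant libraries, and for Grem1, the gene whose level was higher. The bases run 5′ to 3′ on the minus strand, on which both genes lie. Capitals mark the motifs searched on both strands, which were the TATA box TATAAA, the GC box GGGCGG, the CCAAT box CCAAT and the palindrome GGCGCC found in BMP-responsive elements.
Bmp4, chr14:46390670-46390919: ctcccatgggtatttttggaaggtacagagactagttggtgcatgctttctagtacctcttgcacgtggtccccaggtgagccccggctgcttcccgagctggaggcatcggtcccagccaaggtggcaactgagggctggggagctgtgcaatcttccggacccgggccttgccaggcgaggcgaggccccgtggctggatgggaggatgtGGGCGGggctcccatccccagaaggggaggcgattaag
Grem1, chr2:113758649-113758898: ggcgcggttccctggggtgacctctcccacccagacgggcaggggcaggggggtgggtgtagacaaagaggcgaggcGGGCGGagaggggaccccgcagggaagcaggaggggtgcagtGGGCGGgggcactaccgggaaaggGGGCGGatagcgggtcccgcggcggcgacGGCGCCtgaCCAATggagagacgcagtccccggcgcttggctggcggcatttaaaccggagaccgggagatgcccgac
The Bmp4 stretch held 1 GC box and none of the other motifs, and its GC content was 63.2%. The Grem1 stretch held 3 GC boxes, 1 CCAAT box and 1 GGCGCC, and its GC content was 72.0%. Of 32851 promoter stretches of the same length, 32.7% held the GC box, 33.8% CCAAT, 9.59% GGCGCC and 12.4% TATAAA, and their median GC content was 52.4%. Among the 6 genes, Bmp5 alone lay below that median, at 42.8%, and Gdf10 was highest at 78.8%. Chrd held 4 GC boxes and 1 GGCGCC at 78.0% GC, and Gdf10 held 4 GC boxes. Both genes were lower in both mutant libraries, so more GC boxes or a GGCGCC did not set Grem1 apart. Bmp6 held 1 GC box and Bmp5 none of the motifs. A match is a run of letters and was not tested as a binding site.

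Of the 5 ligand genes, all had lower FPKM in both mutant libraries than in WT, except that Bmp6 in Dspp+/- turned with scaling without mitochondrial genes, and the interval of the fold stayed below 1 for 4 of them in each library. Of the 12980 genes with recovered fragments, 28.4% had an interval below 1 in Dspp+/- and 33.6% in Dspp-/-, so at this depth many genes differed beyond counting error. In bulk tissue, fewer cells of a type and less RNA per cell cannot be told apart. Bmp7, a ligand known from kidney and bone, had 6.70 FPKM in the WT library, 2.42 in Dspp+/- and 3.11 in Dspp-/-. WT stood apart from both mutant libraries, and the fold was 0.362 (0.309 to 0.423) in the Dspp+/- library and 0.464 (0.400 to 0.537) in Dspp-/-. The gene lies on chromosome 2 from 172709805 to 172782114 in the authors' table, whose build is not named and which gives all gene positions here. Bmp4, which acts in early skeletal patterning and in osteoblast differentiation, had 11.3 FPKM in WT, and the mutant libraries had 5.84 (Dspp+/-) and 5.26 (Dspp-/-). Its folds of 0.518 (0.448 to 0.598) and 0.466 (0.400 to 0.542) were close to each other, and the mutant libraries differed from one another by less than counting error. Bmp4 lies on chromosome 14 from 46620977 to 46628126.

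Bmp2, a strong inducer of bone formation and of fracture repair, had 11.0 FPKM in WT, 6.52 in the Dspp+/- library and 7.65 in the Dspp-/- library. Its fold was 0.592 (0.530 to 0.661) in Dspp+/-, compared with 0.695 (0.624 to 0.773) in Dspp-/-, so the Dspp+/- library was the lowest. Bmp2 lies on chromosome 2 from 133394079 to 133404805. Bmp5, a ligand of the Bmp7 subgroup that shapes parts of the mouse skeleton, differed less. It had 3.15 FPKM in WT, against 2.31 in Dspp+/- and 2.63 in Dspp-/-, with folds of 0.734 (0.610 to 0.882) and 0.835 (0.697 to 1.00), and the second interval reached 1. In GENCODE M21, 46.7% of the exon bases of Bmp5 overlap Gm26903 on the opposite strand. The library kit does not mark strand, so reads of the pair cannot be told apart, and Gm26903 was listed at 0 to 0.0294 FPKM. Smaller overlaps on the opposite strand were found for Bmp4 (3.96% of exon bases, with Gm15217) and Chrd (3.82%, with Thpo). Bmp5 lies on chromosome 9 from 75682646 to 75807592.

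Bmp6 followed another pattern than the ligands before it. It had 20.1 FPKM in the WT library, 19.7 in Dspp+/- and 14.8 in Dspp-/-. The fold in Dspp+/- was 0.980 (0.916 to 1.05), an interval that holds 1, and scaling without mitochondrial genes turned its log2 ratio from -0.028 to 0.082. In Dspp-/- the fold was 0.733 (0.680 to 0.789), and Dspp+/- exceeded Dspp-/- by a fold of 1.34 (1.24 to 1.44). Of its exon bases, 5.74% overlap Txndc5 on the opposite strand, whose FPKM was 38.9, 23.7 and 25.7 in the same order. The levels, folds and shares of Bmp6 may therefore hold reads of Txndc5, and their part was not tested. Bmp6 lies on chromosome 13 from 38529083 to 38684278.

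The BMP3 subgroup holds Bmp3 and Gdf10 (also called Bmp3b), whose products are set apart from the bone-inducing ligands. Bmp3 had 18.2 FPKM in WT, 9.12 in the Dspp+/- library and 11.6 in the Dspp-/- library. The fold was 0.500 (0.470 to 0.532) for Dspp+/- and 0.638 (0.601 to 0.676) for Dspp-/-, with 2732 fragments behind the WT level, 1594 behind Dspp+/- and 1915 behind Dspp-/-. Bmp3 lies on chromosome 5 from 99002274 to 99032255. Gdf10 had 10.6 FPKM in WT, against 8.02 in Dspp+/- and 8.11 in Dspp-/-. Its folds of 0.757 (0.695 to 0.826) and 0.765 (0.701 to 0.836) were nearly equal, and the fold between the mutant libraries was 0.990 (0.904 to 1.08). Gdf10 lies on chromosome 14 from 33645544 to 33659940.

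Of the 3 antagonists, Nog and Chrd were lower in both mutant libraries than in WT, and Grem1 was higher beyond counting error in Dspp+/- only. Nog encodes noggin, which is needed for joint formation in the embryo, and had 11.6 FPKM in the WT library, 9.19 in Dspp+/- and 5.65 in Dspp-/-. Here Dspp-/- was the low library, with a fold of 0.488 (0.411 to 0.578) against WT, while the fold of Dspp+/- was 0.795 (0.688 to 0.918). Between the mutant libraries Nog had the largest difference of the 10 genes on the log2 scale, and Dspp+/- was higher by a fold of 1.63 (1.37 to 1.94). Nog lies on chromosome 11 from 89191464 to 89193158. Chrd, the gene of chordin, had 1.62 FPKM in WT, and the mutant libraries had 0.947 (Dspp+/-) and 1.24 (Dspp-/-), with folds of 0.585 (0.469 to 0.729) and 0.763 (0.620 to 0.939). Chrd lies on chromosome 16 from 20551877 to 20561134.

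Grem1 was the gene with a higher level than WT. Gremlin 1 binds BMP2 and BMP4 and marks some stromal and skeletal progenitor cells. The gene had 1.10 FPKM (92 fragments) in WT, against 2.14 (210) in Dspp+/- and 1.37 (126) in Dspp-/-. The fold was 1.96 (1.52 to 2.53) in the Dspp+/- library and 1.25 (0.945 to 1.65) in Dspp-/-, where the interval holds 1. Dspp+/- exceeded Dspp-/- by a fold of 1.57 (1.25 to 1.97). Grem1 lies on chromosome 2 from 113576509 to 113588991.

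**Figure D2:**
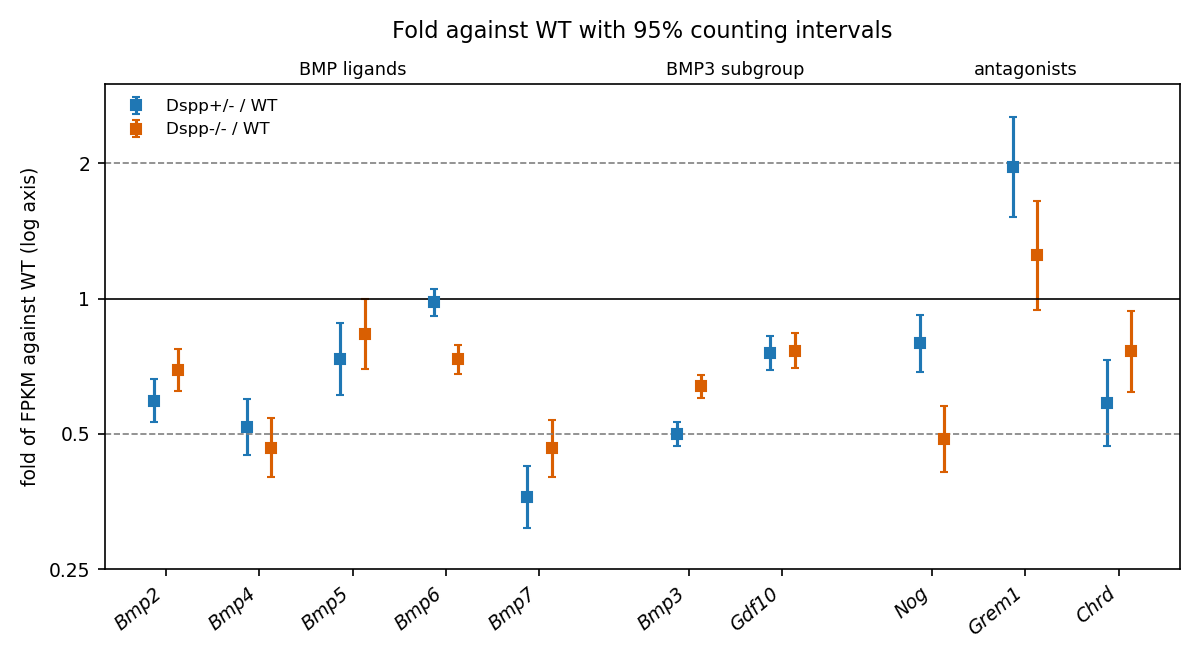
Fold of FPKM against WT (log axis) in Dspp+/- and Dspp-/-, with 95% Clopper-Pearson intervals for counting error. The solid line is 1 and the dashed lines are 0.5 and 2. Bmp7 in Dspp+/- has the lowest fold, 0.362, and Grem1 in Dspp+/- the highest, 1.96.

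To set the 10 genes beside all others, ratios were taken as log2 of FPKM + 1, which understates the change of low genes, and a gene was called at 2-fold or more. In Dspp+/- against WT, 1 of the 10 genes was called lower, Bmp7 with a log2 ratio of -1.17, and 0 were called higher. With a pseudocount of 5 the call on Bmp7 was lost. Over all 13026 genes compared, 2.86% were called lower and 4.88% higher. In Dspp-/- against WT, 0 of the 10 genes were called, against 1.37% of all genes called lower and 4.05% higher. Just short of the threshold were Bmp3 at -0.93 in Dspp+/-, and Bmp4 at -0.97, Nog at -0.92 and Bmp7 at -0.91 in Dspp-/-. With a pseudocount of 0.1 in place of 1, these last 3 were called, and 3 genes were lower in Dspp-/-.

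Most of the 10 genes were lower by amounts under 2-fold. In each mutant library 9 of the 10 had a log2 ratio below 0, where 43.7% of all genes were below 0 in Dspp+/- and 49.3% in Dspp-/-. Taken over the 10 genes, the median log2 ratio was -0.39 in Dspp+/- and -0.45 in Dspp-/-, where all genes had 0.058 and 0.007. The WT library is shared by both comparisons. The interval of the fold lay below 1 for 8 of the 10 genes in each comparison, beside the 28.4% and 33.6% of all genes given above, and above 1 for 1 and 0, beside 39.4% and 34.1% of all genes. Of the FPKM in a library, mitochondrial genes made up 25.0% in WT but 36.9% in Dspp+/- and 37.3% in Dspp-/-. With scaling without them, the median of all genes was 0.15 in Dspp+/- and 0.10 in Dspp-/-, 8 of the 10 genes were below 0 in Dspp+/- and 9 in Dspp-/-, and the median of the 10 genes was -0.31 and -0.35.

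**Figure D3:**
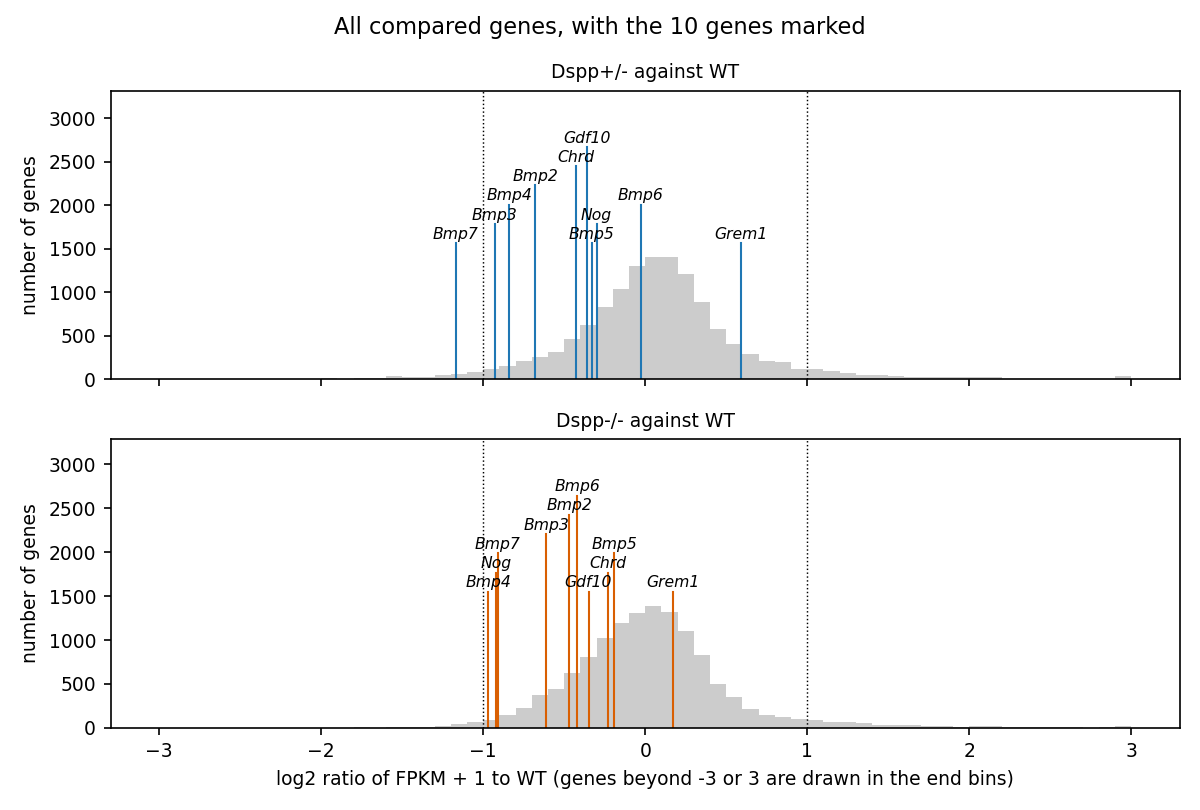
Number of genes (vertical axis) by log2 ratio of FPKM + 1 to WT (horizontal axis) for the 13026 genes compared, above for Dspp+/- and below for Dspp-/-. Lines mark the 10 genes and dotted lines the 2-fold thresholds. Bmp7 at -1.17 in Dspp+/- is the 1 line past a threshold.

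The mutant libraries were also set against each other. No gene of the 10 was called at 2-fold in Dspp+/- against Dspp-/-, where 0.852% of all genes were called lower and 0.798% higher. The interval of the fold was below 1 for Bmp2, Bmp3, Bmp7 and Chrd and above 1 for Bmp6, Nog and Grem1, where 25.5% of all genes lay below and 34.6% above. It held 1 for Bmp4, Bmp5 and Gdf10. Bmp7 had a fold of 0.780 (0.652 to 0.932) and Bmp3 one of 0.784 (0.734 to 0.839) in Dspp+/- against Dspp-/-.

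The summed FPKM of the 10 genes was 95.4 in WT, 66.3 in the Dspp+/- library and 61.4 in the Dspp-/- library. The 5 ligands had 52.3, 36.8 and 33.4 FPKM in that order, which was 54.8%, 55.6% and 54.4% of the whole set, so their part hardly differed between libraries. Within the ligands the make-up did differ. Bmp6 was 38.5% of ligand FPKM in WT, against 53.6% in Dspp+/- and 44.2% in Dspp-/-, while Bmp7 was 12.8%, 6.58% and 9.30%. Bmp4 was 21.6% in WT and 15.9% and 15.7% in the mutant libraries. These shares do not depend on how the libraries were scaled.

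The 3 antagonists of the set, Nog, Grem1 and Chrd, summed to 14.3 FPKM in the WT library, 12.3 in Dspp+/- and 8.25 in Dspp-/-. They are only a part of such genes. The 17 other antagonists and modulators looked at below, Sost among them, summed to 569, 351 and 313 FPKM. Bmp3 and Gdf10 were in neither the ligand nor the antagonist sum. The 5 ligands had 3.66 times the FPKM of these 3 antagonists in WT, 3.00 times in Dspp+/- and 4.05 times in Dspp-/-, which is no ratio over the whole pathway. No interval was taken for these ratios, so whether they differ beyond counting error was not tested. Nog was most of the sum of these 3 genes, with 81.0% in WT, 74.8% in the Dspp+/- library and 68.5% in the Dspp-/- library. Grem1 went from 7.67% in WT to 17.5% and 16.6%. A share also moves with the other genes of the sum. In Dspp-/- the fold of Grem1 itself was 1.25 (0.945 to 1.65), while that of Nog was 0.488. The order of the levels also differed, with Bmp6, whose level may hold reads of Txndc5, first in all libraries. In Dspp+/- Nog at 9.19 FPKM was ahead of Bmp3 at 9.12, and they differed by less than counting error. Grem1 was last in WT and Chrd in Dspp+/-, while in Dspp-/- Grem1 at 1.37 and Chrd at 1.24 FPKM, the lowest pair, differed by less than counting error.

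**Figure D4:**
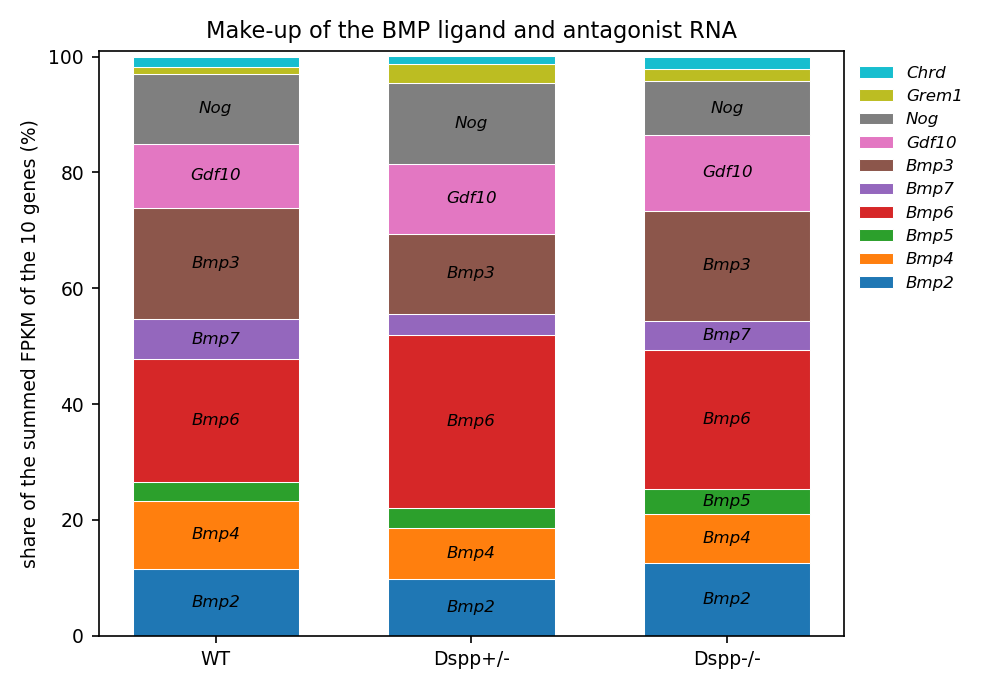
Share of the summed FPKM of the 10 genes (vertical axis, percent) held by each gene in the WT, Dspp+/- and Dspp-/- libraries. Bmp6 takes 21.1% in WT, 29.8% in the Dspp+/- library and 24.0% in the Dspp-/- library, and Bmp3 takes 19.1%, 13.8% and 18.9%.

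Other genes of the pathway were taken from lists by role, also chosen with earlier results of these data known. Of 62 listed genes, 58 were in the table and 43 averaged 1 FPKM or more. Of the 43 genes, 7 were called lower in Dspp+/- and 5 in Dspp-/-, and 0 were called higher in either, beside the 2.86% and 1.37% of all genes called lower. Their median log2 ratio was -0.40 in Dspp+/- and -0.24 in Dspp-/-. The median in Dspp+/- was -0.22 with a pseudocount of 5, and with no filter on low values the medians were -0.13 and -0.14. With scaling without mitochondrial genes 4 and 2 were called lower, as Nbl1, Dlx5 and Hey1 lost their call in Dspp+/- and Bmp1, Bambi and Id1 theirs in Dspp-/-, and the median in Dspp-/- was -0.15. Some of the listed genes are also markers of bone cells, among them Sp7, Runx2 and Sost. Among other ligands, Bmp8a alone passed the limit, with 21.1 FPKM in WT, against 10.8 in Dspp+/- and 11.6 in Dspp-/-, and its reads may be split with its close copy Bmp8b. Its log2 ratios were -0.91 and -0.81.

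Receptors and co-receptors lay on both sides of WT, with median log2 ratios of 0.091 in Dspp+/- and 0.025 in Dspp-/-. Of these genes 0 of 10 were called. Among all genes, 2.86% were called lower and 4.88% higher in Dspp+/-, and 1.37% and 4.05% in Dspp-/-. Bmpr1a, a type I receptor, had 24.3 FPKM in the WT library, 21.9 in Dspp+/- and 28.2 in Dspp-/-, and Bmpr2, the type II receptor, had 13.7, 13.4 and 16.9. Hjv, the gene of hemojuvelin, a BMP co-receptor of muscle and liver, was the most abundant in WT at 102 FPKM and had 141 and 92.7 in the mutant libraries. Acvr2a, another type II receptor, had the highest log2 ratios of the receptors compared, 0.49 and 0.61. Bmpr1b, a type I receptor, averaged 0.496 FPKM and was below the limit for comparing. Its folds were larger, at 2.34 (1.53 to 3.69) and 2.64 (1.72 to 4.14), from 30 fragments in WT. The 4 SMAD transducers had medians of -0.29 and -0.16, and none was called. Smad4, which all branches of the superfamily share, was the most abundant of them, with 27.8, 25.9 and 31.5 FPKM.

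Genes that act on the signal outside and inside the cell held several of the calls, beside 2.86% of all genes called lower in Dspp+/- and 1.37% in Dspp-/-. Of 12 other antagonists and modulators compared, 7 were below 0 and 5 above in Dspp+/-, and 8 and 4 in Dspp-/-. Their medians were -0.25 and -0.14, with 1 and 2 called lower. Fst, the gene of follistatin, was higher, with folds of 1.83 (1.55 to 2.16) and 1.44 (1.20 to 1.72). All 5 intracellular inhibitors were below 0 in both. Bmp1 encodes a proteinase that cleaves chordin and procollagens and is no BMP ligand. It had 45.7 FPKM in WT, and the mutant libraries had 14.2 (Dspp+/-) and 22.3 (Dspp-/-), with folds of 0.310 (0.298 to 0.324) and 0.487 (0.470 to 0.506). Nbl1, an antagonist of the DAN family like gremlin, had 124 FPKM in WT, 58.3 in the Dspp+/- library and 57.1 in the Dspp-/- library. Sost, the gene of the osteocyte product sclerostin, which is known above all as a Wnt antagonist, had 272 FPKM in WT, against 167 in Dspp+/- and 111 in Dspp-/- and was called in the latter at -1.28. Bambi, a decoy receptor, had 19.8, 7.49 and 9.25 FPKM and was called in both, at -1.29 and -1.02. With scaling without mitochondrial genes its ratio in Dspp-/- was -0.93. Smad6 and Smad7, the inhibitory SMADs that the pathway itself induces, had log2 ratios of -0.58 and -0.62 in Dspp+/- and -0.65 and -0.61 in Dspp-/-.

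All 10 target genes compared had a log2 ratio below 0 in both mutant libraries, with medians of -0.79 in Dspp+/- and -0.43 in Dspp-/-. Of all genes, 43.7% were below 0 in Dspp+/- and 49.3% in Dspp-/-. Among the targets 4 were called lower in Dspp+/- and 1 in Dspp-/-, beside 2.86% and 1.37% of all genes. Id3, an inhibitor of bHLH factors and a direct SMAD target, had 156 FPKM in the WT library, 71.6 in Dspp+/- and 79.0 in Dspp-/-. Id1, another direct target, had 39.8, 28.8 and 18.1 FPKM and was called in Dspp-/- at -1.09. Hey1, a bHLH repressor that BMP and Notch signals induce, had 17.4, 7.67 and 12.6 FPKM and was called in Dspp+/-. The other called genes of this list in Dspp+/- were Sp7 at -1.43 and Dlx5 at -1.07, which are osteoblast transcription factors.

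**Figure D5:**
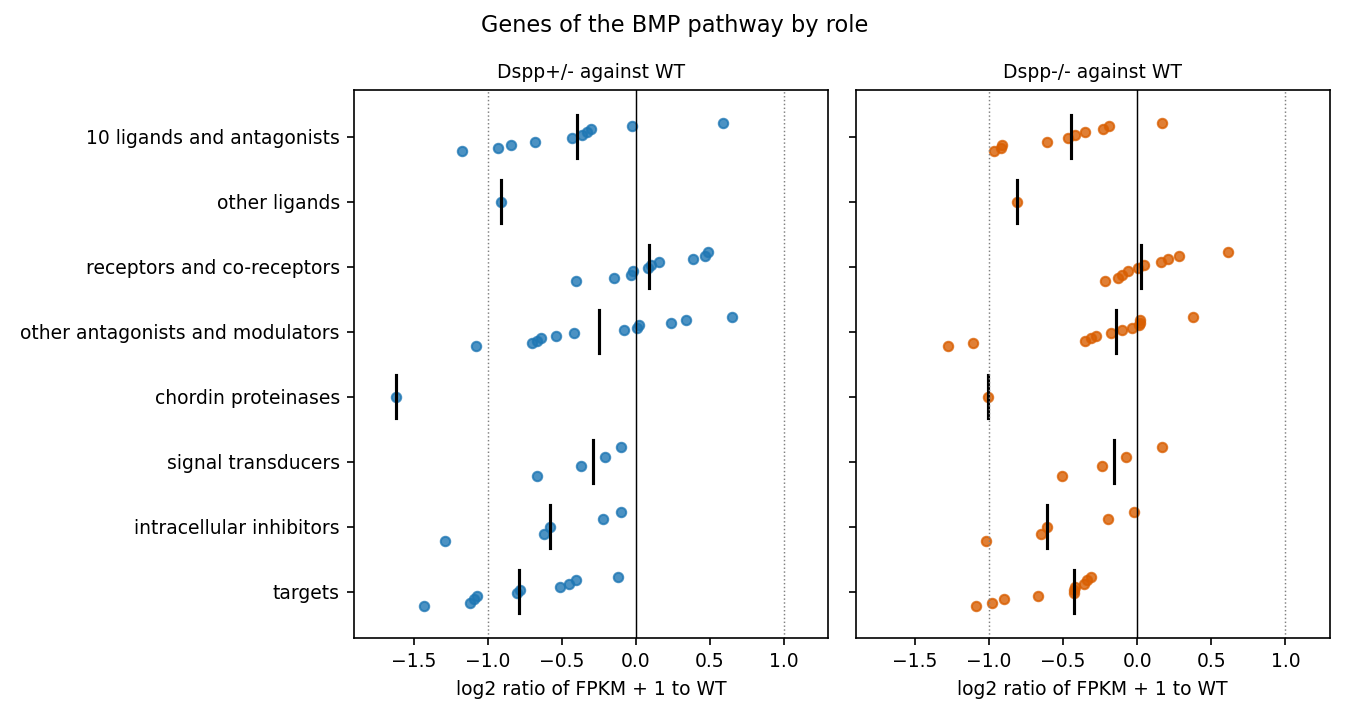
Log2 ratio of FPKM + 1 to WT (horizontal axis) for the 10 ligands and antagonists and for the other pathway genes by role, with Dspp+/- left and Dspp-/- right. Points are genes, thick bars list medians, and dotted lines the 2-fold thresholds. The receptors lie around 0, with medians of 0.091 and 0.025, and the targets lie to the left, with medians of -0.79 and -0.43.

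Markers of cell types also differed between the libraries, in both directions. The counts called below stand beside 2.86% of all genes called lower and 4.88% higher in Dspp+/-, and 1.37% and 4.05% in Dspp-/-. Between the mutant libraries the osteoblast and chondrocyte markers had medians of -0.84 and -1.15 in Dspp+/- against Dspp-/-, where the 10 genes had -0.073. In the same comparison osteoclast markers had -0.69, osteocyte markers -0.21, and tendon and fibroblast markers 0.063. For the osteoblast markers the median log2 ratio was -1.60 in Dspp+/- and -0.89 in Dspp-/-, with 10 and 3 of 11 called lower, and summed to 15966 FPKM in WT, 4404 and 8854. The chondrocyte markers had medians of -2.06 and -1.11, with 10 and 8 of 12 called lower, and summed to 1910, 527 and 847 FPKM. The medians of both lists lay below that of the 10 ligands and antagonists, which was -0.39 and -0.45. The erythroid markers had medians of 2.05 and 2.20, with 9 of 10 called higher in each, and summed to 953, 3805 and 3706 FPKM. The neutrophil markers had medians of 1.96 and 2.58, with 10 of 10 called higher in each, and summed to 605, 2680 and 3565 FPKM. Endothelial markers had medians of 0.11 and 0.17, with 0 of 8 called. None of the markers in these lists was at 0 in any library. The part of these cells in the levels of the 10 genes was not tested.

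The genes whose pair of log2 ratios to WT lay nearest to each of the 10 were found among 4037 genes averaging 10 FPKM or more. With 3 libraries such a match is a description and is easily met. Nearest to Bmp7 were Barx1, at a distance of 0.031 on the log2 scale, and Qsox1, and 6 genes lay within 0.1 of it. Nearest to Bmp4 were Sdc4 and Ctsz, with 4 genes within 0.1, and near to Nog was Fis1, again with 4. By contrast 80 genes lay within 0.1 of Gdf10 and 76 of Bmp5. Nearest to Bmp3 were Mamdc2, with 17.1 FPKM in WT, 8.60 in the Dspp+/- library and 10.9 in the Dspp-/- library, and Ckap4. Acvr1, the gene of a type I BMP receptor, was the second nearest to Chrd, at a distance of 0.026, but 47 genes lay within 0.1 of Chrd.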

How the data were processed

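RNA was sequenced from 3 libraries of mandibular condyles, 1 per genotype, after poly(A) selection with a kit that does not mark strand. The values the authors deposited are 1 per gene and library and were taken as FPKM, fragments divided by gene length and library size before deposit. No source used here names that unit, and it rests on the values. They were multiplied by the exon length of the gene (GENCODE M21) and by a depth per library, fitted so that the products come out whole. With that depth, 98.6% to 98.7% of values under 100 fragments were whole within 0.05. The labels speak of triplicates. The submitters' notes list FastQC 0.11.5, HISAT2 2.1.0, StringTie 1.3.3b and DESeq 1.28.0, and the build hg38, a human build, although identifiers and chromosomes are mouse. Gene positions are the authors' own, of an unnamed build that is not GRCm38, where only 578 of 26641 genes have the same start and end.

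Depth and fragments were recovered from these steps with a method tested on simulated data. Ratios used a pseudocount of 1 and genes averaging 1 FPKM or more, and the call was 2-fold. The study's Kruskal–Wallis test cannot be run on 1 library per group. Named genes were the 10 members, pathway genes at 2-fold or most abundant in WT of their list, some others of those lists given as examples chosen after their values were seen, and genes among the 2 nearest in pattern to a member, of which 1 is not reported here. Members and lists were chosen with earlier results of these data known. Alternatives were other pseudocounts, filters, scalings and thresholds. Markers of osteocytes (median log2 ratio of -1.42 in Dspp+/- and -1.25 in Dspp-/-), osteoclasts (-1.32 and -0.59), B cells (1.42 and 1.18), megakaryocytes (1.67 and 1.60), skeletal muscle (0.42 and 0.072), adipocytes (-0.48 and 1.14, opposite in sign), tendon and fibroblasts (-0.42 and -0.36) and synovium and tooth (0.64 and 0.37) were looked at as well. Protein sequences were not used here. Analysis used Python 3.11.15 with scipy 1.17.1, numpy 2.4.6 and pandas 2.3.3, and plots matplotlib 3.10.9.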

Additional observations from a re-analysis of the deposited data

How the results depend on the processing

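No paired analysis was possible because each genotype has 1 library. For the same reason no library could be left out. The log2 ratios of the 10 genes to WT kept their sign under all alternatives run, except Bmp6 in Dspp+/-, which turned with scaling without mitochondrial genes. Counts of genes depended most on the threshold and pseudocount, which follows from their construction. In Dspp+/- against WT, members called lower were 2 with upper-quartile scaling, 4 at 1.5-fold, and 0 with a pseudocount of 5, a mean of at least 5 FPKM or a 4-fold threshold, and 1 was higher at 1.5-fold. In Dspp-/- 3 were lower with a pseudocount of 0.1 and 4 at 1.5-fold. In Dspp+/- against Dspp-/- 1 was higher at 1.5-fold, and a mean of at least 5 FPKM, which left 6 of the 10 genes, turned their median log2 ratio from -0.073 to 0.057. Pathway genes called lower in Dspp+/- were 4 with a pseudocount of 5, 4 with scaling without mitochondrial genes, 15 at 1.5-fold (with 1 higher) and 0 at 4-fold, and in Dspp-/- 2, 2, 11 (with 1 higher) and 0. The pathway median in Dspp+/- was -0.22 with a pseudocount of 5 and -0.13 with no filter. Scaling without mitochondrial genes moved the log2 fold of the summed ligands to -0.39 in Dspp+/- and -0.54 in Dspp-/-, and of the BMP3 subgroup to -0.63 and -0.44.

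Over all genes, lower and higher calls in Dspp+/- against WT were 605 and 971 with a pseudocount of 0.1, 156 and 185 with 5, 1166 and 1501 at 1.5-fold and 24 and 124 at 4-fold, with 281 higher at a mean of at least 5 FPKM. In Dspp-/- they were 363 and 836, 45 and 136, 1070 and 1152, and 6 and 103, with 110 and 228 at a mean of at least 5 FPKM. Between the mutant libraries they were 223 and 214, 36 and 36, 441 and 563, and 15 and 13, with 172 and 170 without a filter and 57 and 52 at a mean of at least 5 FPKM. Depth limits Grem1 and Chrd most, with 92 and 140 fragments in their lowest libraries.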
